A study of Mus musculus with 3 samples.

Results

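The extracellular matrix glycoproteins described here are 38 genes for fibronectin, tenascin-C, thrombospondins, laminin chains, nidogens, fibulins, microfibril proteins and related secreted matrix proteins. They were chosen by name, but with earlier results of these data known. They include Dpt, Ecm1, Aebp1 and Tnc, which the study picked from these same arrays. Of the 38 genes, 35 had a named probe on the array, out of 19057 genes with a named probe in all, and Lama3, Fbn1 and Fbn2 had none. A gene is represented by its brightest probe, by mean log2 intensity, and its other probes served as a check.

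RNA came from 3 mouse cell lines of the C57BL/6 background, with 1 array for each line. LLC/luc parental cells are a luciferase-carrying form of Lewis lung carcinoma, a mouse lung tumour line. LLC/luc BM 1st cells were grown from the bone marrow of mice in which injected parental cells had formed bone lesions, and LLC/luc BM 2nd cells were grown in the same way after an injection of BM 1st cells. All 3 lines carry luciferase and were grown in DMEM with fetal bovine serum, and no treatment is given for any of them. The selected lines are successive and not independent of each other, each is 1 culture, and a culture from marrow can hold host cells. The question is which matrix glycoprotein transcripts differed between the lines before and after each passage through bone. No value has a replicate, so no p-value is given. The number of arrays limits the precision, and each difference below compares 2 arrays.

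Matrix glycoproteins are secreted proteins that assemble with collagens into fibrils, basement membranes and elastic fibres. Cells bind them through integrins and syndecans, and several of them hold transforming growth factor beta (TGF-beta) in a latent form in the matrix. Bone matrix is rich in type I collagen and in glycoproteins that bind it, such as osteonectin, the product of Sparc.

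The deposited values are linear intensities in arbitrary units that the authors had brought to a common distribution. Background on each array was set as the 95th percentile of 1501 probes for odour and pheromone receptors, which was 109.5, 109.8 and 107.3 in parental, BM 1st and BM 2nd cells. A gene was compared between 2 lines when it was above background in 1 or both of them. The log2 ratios of the receptor probes had an SD of 0.12 in each of the 3 comparisons, and none passed 2-fold. Across 3154 genes with 2 or more probes above background, the median SD between probes of 1 gene was 0.14 in the BM 2nd to parental log2 ratio and 0.13 in the BM 1st to parental one. Both kinds of SD describe probes on the same arrays and do not measure variation between cultures. Of the epithelial markers checked, Krt8 and Krt18 were bright in all lines, at 1381, 997 and 2509 for Krt8 and at 2025, 2280.1 and 1274 for Krt18 in parental, BM 1st and BM 2nd cells. Cdh1 was just above background at 116 to 125, and Epcam and Krt19 were not above it on any array.

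Of the 35 matrix glycoprotein genes with a probe, 21 were above background on all 3 arrays. Tnc was above background in parental and BM 2nd cells, Mfap2 in BM 1st cells alone, and 12 genes on no array. These 12 genes were Postn, Vtn, Lama1, Lama2, Lama4, Lamb3, Nid2, Fbln2, Fbln5, Eln, Mfap4 and Mfap5, whose chosen probes lay between 85.9 and 103.7. None of their 23 probes was above background, so these genes were not detectable at this level of signal. The number of matrix glycoprotein genes above background was 22 on each array.

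**Figure D1:**
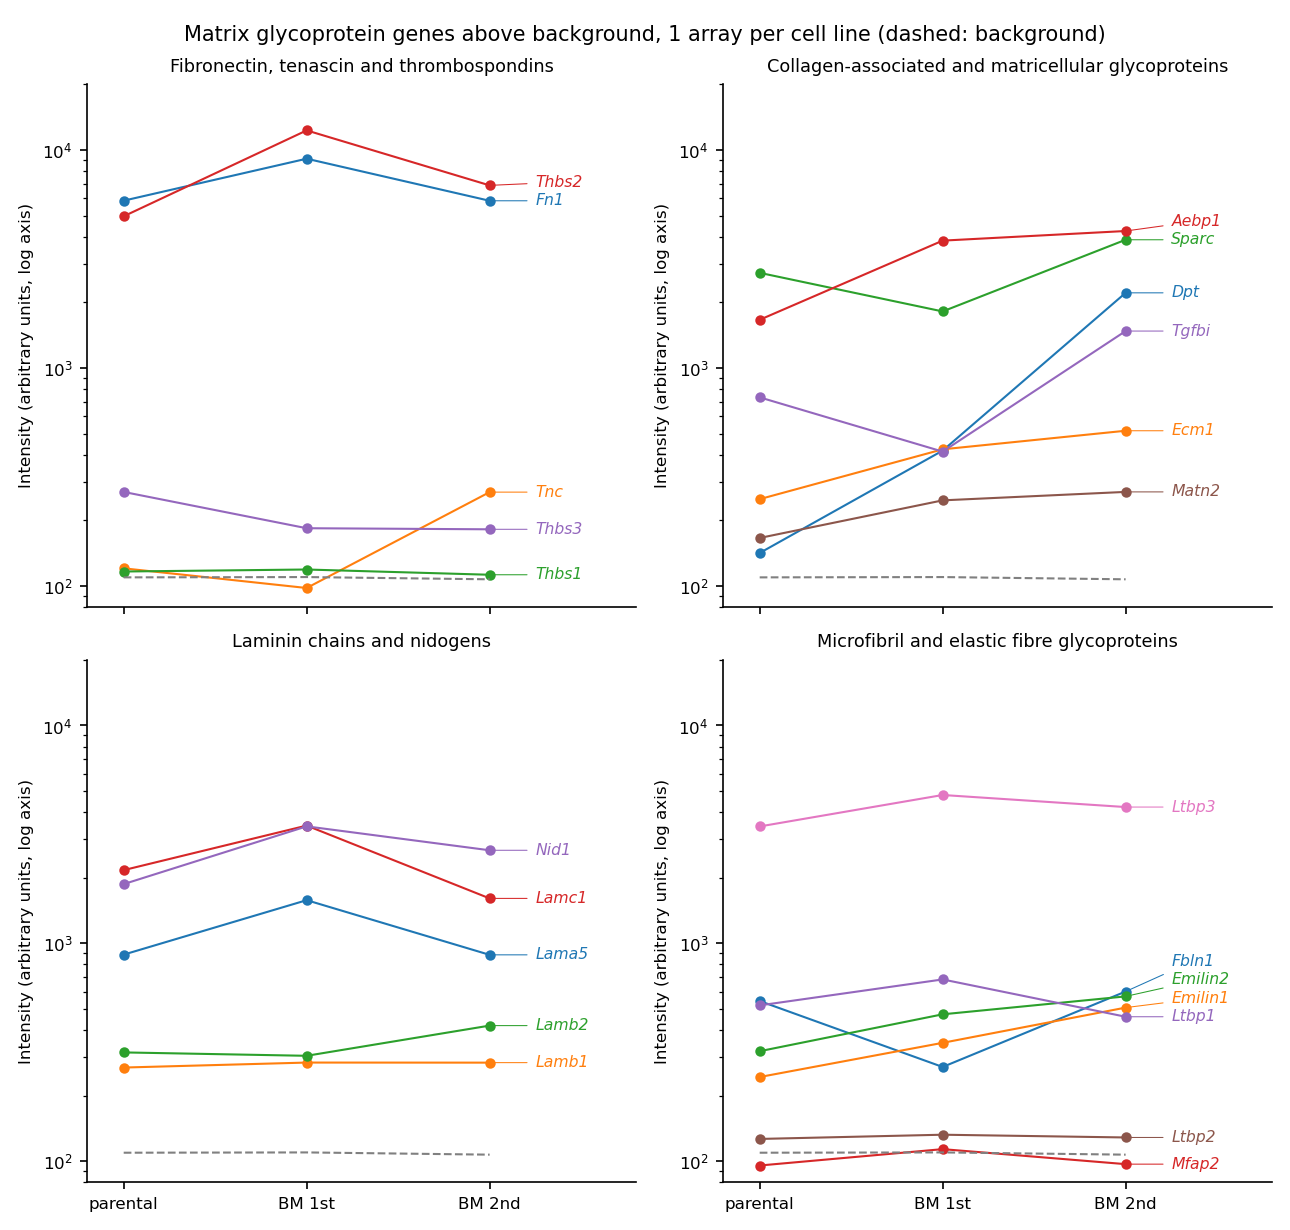
Intensity (arbitrary units, log axis) in parental, BM 1st and BM 2nd cells for the 23 matrix glycoprotein genes above background on 1 or more arrays, in 4 panels by role; each point is 1 array, and the dashed line is the background. Only changes along a line can be read, since different probes are not comparable in level; Dpt climbed from 142 to 418 and 2213, while Thbs2, Fn1, Lama5 and Lamc1 peaked in BM 1st cells.

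Compared with parental cells, BM 2nd cells had 6 of the 22 matrix glycoprotein genes compared more than 2-fold higher, namely Dpt, Aebp1, Tnc, Emilin1, Ecm1 and Tgfbi, and 0 more than 2-fold lower. Over all 10576 genes compared 1.83% were higher and 1.53% lower by that measure. Past 1.5-fold the count was 8, with Emilin2 and Matn2 added, and again 0 were lower, beside 6.76% and 6.13% of all genes. The median log2 ratio was 0.44 over the 22 genes and 0.0071 over all genes compared, and 16 of the 22 lay above 0, against 50.9% of all genes. A gene that is dim in one line can enter a comparison only through the line in which it is bright. Here all 22 genes were above background in both lines. The median over all 35 genes with a probe, which adds genes above background in neither line, was 0.041. The study picked Dpt, Ecm1, Aebp1 and Tnc from these same arrays, so these 4 are not independent evidence of a direction. Without them 2 of 18 genes were more than 2-fold higher, Emilin1 and Tgfbi, and the median was 0.22. When the probes of a gene above background were averaged, 3 genes remained past 2-fold higher, Dpt, Aebp1 and Emilin1, each of which has a single probe. Over all genes the averaging called 146 higher and 120 lower, in place of 194 and 162.

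In BM 1st cells 3 of the 23 genes compared with parental cells were more than 2-fold higher, Dpt, Thbs2 and Aebp1, and 1 was more than 2-fold lower, Fbln1. Among all 10370 genes compared 2.04% were higher and 1.79% lower. Past 1.5-fold 8 genes were higher, with Nid1, Lama5, Ecm1, Lamc1 and Fn1 added, and 3 were lower, Tgfbi, Sparc and Fbln1, beside 6.5% and 6.37% of all genes. The median log2 ratio was 0.48, against -0.0081 over all genes compared, and 0.076 over the 35 genes with a probe. Without the 4 genes picked by the study 1 of 19 was more than 2-fold higher, Thbs2, and the median was 0.40.

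The step from BM 1st to BM 2nd cells went in both directions. Of 23 genes, 5 were more than 2-fold higher in BM 2nd cells, Dpt, Tgfbi, Tnc, Fbln1 and Sparc, and 1 was more than 2-fold lower, Lamc1, beside 3.01% and 1.78% of all 10551 genes compared. Past 1.5-fold the same 5 genes were higher and 4 were lower, Lamc1, Thbs2, Lama5 and Fn1, beside 8.55% and 7.12% of all genes. The median log2 ratio was -0.0012, near that of all genes at -0.012. The comparisons share arrays, so the 3 sets of values are not independent of each other.

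**Figure D2:**
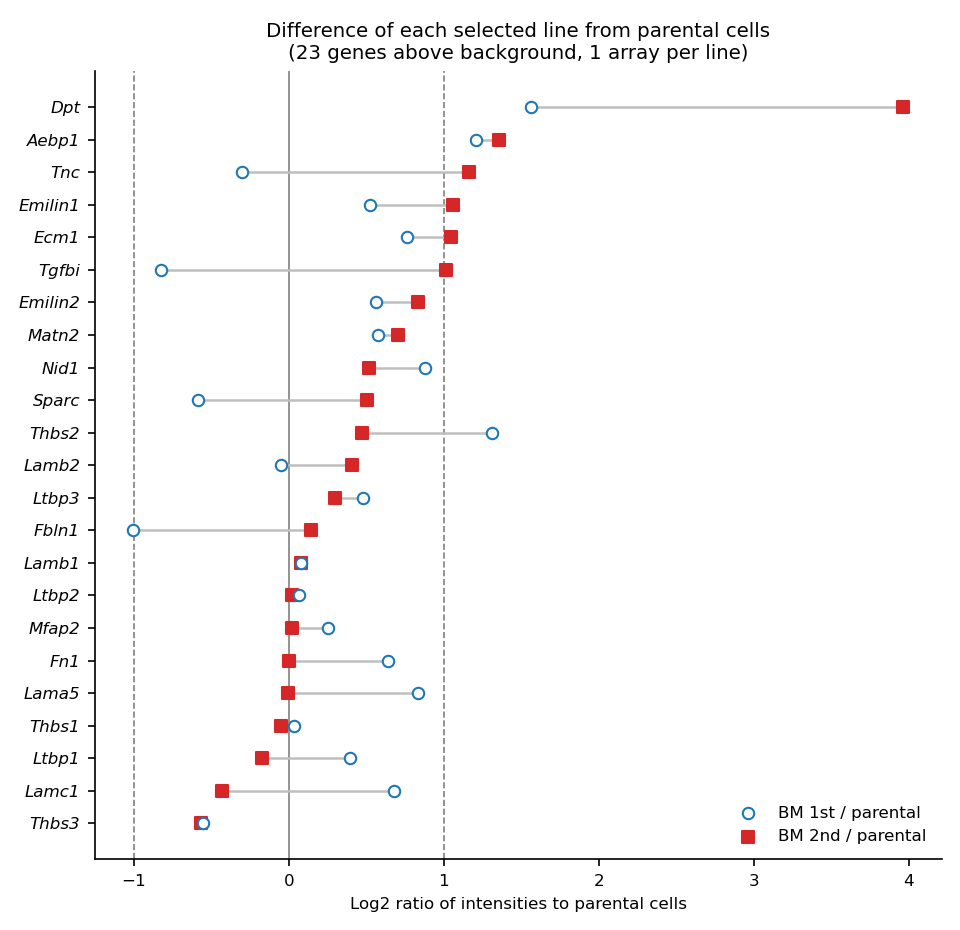
Log2 ratio of intensity to parental cells for 23 matrix glycoprotein genes, with open circles for BM 1st cells and red squares for BM 2nd cells (1 array per line); dashed lines mark 2-fold. Dpt lies farthest to the right in both lines, Tgfbi, Sparc, Tnc and Fbln1 are left of 0 in BM 1st cells and right of 0 in BM 2nd cells, and Lamc1 shows the opposite; Tnc in BM 1st cells and Mfap2 in parental and BM 2nd cells were not above background.

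The 21 genes above background on all arrays were also sorted by the order of the 3 lines. Intensity was lowest in parental cells and highest in BM 2nd cells for 6 genes, Dpt, Ecm1, Aebp1, Matn2, Emilin1 and Emilin2, and in all 6 the ends differed by more than 1.5-fold. Over 8645 genes above background on all arrays 14.2% had this order and 3.77% had it past 1.5-fold. Sparc, Tgfbi, Fbln1 and Lamb2 were lowest in BM 1st cells and highest in BM 2nd cells, an order found in 18.8% of all genes. A further 10 genes were highest in BM 1st cells, beside 35.4% of all genes. Thbs3 was the only one of the 21 that was highest in parental cells, beside 31.5% of all genes.

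Among the collagen-associated and matricellular glycoproteins, Dpt showed the largest log2 ratio of the 22 genes compared between BM 2nd and parental cells. Dpt encodes dermatopontin, which binds decorin and collagen and aids collagen fibril formation. Its intensity was 142, 418 and 2213 in parental, BM 1st and BM 2nd cells, so that it rose at both steps. BM 2nd cells were 15.6-fold above parental cells, a log2 ratio of 3.97 that ranked 7 from the top of 10576 genes compared. The first step contributed a log2 ratio of 1.56 and the second 2.41. With background subtracted, which raises ratios of dim probes, these were 2.74 and 2.70 and the whole difference was 5.44, so the steps were close in size. Dpt has 1 probe, so no second probe checks it. Lum and Dcn, counted here among fibroblast and marrow stroma markers, were also higher in both selected lines, and their part in the change was not tested.

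Aebp1 encodes a secreted protein that binds fibrillar collagen and is found in fibroblast-like cells. It was 1665, 3842 and 4253 in parental, BM 1st and BM 2nd cells, with log2 ratios to parental cells of 1.21 and 1.35. The difference between the 2 selected lines, 0.15, was about as large as the usual SD between probes, so nearly all of the change lay in the first step. Ecm1, whose product binds perlecan and other matrix proteins, was 250.2, 424 and 515 in the same order. In BM 2nd cells it was 1.04 above parental cells on the log2 scale, but its other probe, near background, gave 0.12, and the mean of both was 0.58. Matn2 encodes matrilin-2, which links filaments of the matrix, and was 166, 247 and 270.1. Its log2 ratio of 0.70 in BM 2nd cells was past 1.5-fold but not 2-fold, although it was 1.28 with background subtracted.

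Tgfbi and Sparc dipped in BM 1st cells and were highest in BM 2nd cells. Tgfbi encodes a collagen- and integrin-binding protein that is induced by TGF-beta. It was 734, 413 and 1478 in parental, BM 1st and BM 2nd cells, which is a log2 ratio of -0.83 at the first step and 1.84 at the second. Its other probe moved in the same directions, by -0.62 and 0.94. Against parental cells the chosen probe was 1.01 higher in BM 2nd cells on the log2 scale and the other probe 0.32, so the 2-fold call rests on 1 probe. Sparc was 2734, 1818 and 3878, with log2 ratios to parental cells of -0.59 and then 0.50. Its other probes also fell in BM 1st cells, with log2 ratios of -0.72 and -0.95, and they rose from BM 1st to BM 2nd cells by 0.46 and 1.30. At the second step the chosen probe gave 1.09 and the mean over probes 0.95, just short of 2-fold. In BM 2nd against parental cells they differed in sign, at -0.26 and 0.35, so the probes do not give Sparc one direction between these lines.

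The sequences just upstream of 6 of these genes are shown because Dpt, Aebp1, Ecm1 and Tgfbi were past 2-fold in BM 2nd against parental cells, Thbs2 was past 2-fold in BM 1st cells, and Sparc and Tgfbi were past 2-fold between the selected lines. Tnc, Emilin1 and Fbln1 were also past 2-fold in at least 1 comparison, but their upstream sequences are not shown. The windows are the 150 bases before the RefSeq transcription start on the gene's own strand, 5′ to 3′, with coordinates of assembly GRCm38.p6. Capitals mark TATAAA, searched on the gene's strand, and CCAAT and GGGCGG, searched on both strands; none of these matches overlaps another.
Dpt (chr1:164796513-164796662, plus strand): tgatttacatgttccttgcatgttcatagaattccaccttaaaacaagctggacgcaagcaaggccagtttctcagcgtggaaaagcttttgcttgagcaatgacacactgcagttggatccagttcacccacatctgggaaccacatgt
Aebp1 (chr11:5861716-5861865, plus strand): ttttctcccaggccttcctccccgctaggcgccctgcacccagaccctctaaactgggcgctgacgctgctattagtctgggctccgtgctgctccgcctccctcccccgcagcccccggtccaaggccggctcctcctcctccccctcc
Ecm1 (chr3:95739570-95739719, minus strand): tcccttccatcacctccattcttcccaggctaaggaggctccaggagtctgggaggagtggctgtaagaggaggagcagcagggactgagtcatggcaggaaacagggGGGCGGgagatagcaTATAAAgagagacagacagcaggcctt
Thbs2 (chr17:14694263-14694412, minus strand): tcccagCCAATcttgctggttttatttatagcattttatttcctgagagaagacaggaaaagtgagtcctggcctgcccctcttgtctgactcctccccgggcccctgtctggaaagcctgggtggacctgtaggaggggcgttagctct
Tgfbi (chr13:56609436-56609585, plus strand): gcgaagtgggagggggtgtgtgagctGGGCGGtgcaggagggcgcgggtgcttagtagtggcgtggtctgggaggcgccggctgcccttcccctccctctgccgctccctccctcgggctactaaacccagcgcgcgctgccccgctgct
Sparc (chr11:55420081-55420230, minus strand): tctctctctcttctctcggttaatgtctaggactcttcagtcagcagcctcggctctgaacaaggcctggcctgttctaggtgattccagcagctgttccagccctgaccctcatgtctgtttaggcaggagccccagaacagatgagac
In the Ecm1 window TATAAA began 27 bases and GGGCGG 42 bases before the start, in that of Thbs2 CCAAT began 144 bases before it, and in that of Tgfbi GGGCGG began 124 bases before it. None of the 3 motifs was found in the windows of Dpt, Aebp1 and Sparc. GC content was 45.3% for Dpt, with 2 CpG, against 69.3% and 9 CpG for Aebp1 and 72% and 13 CpG for Tgfbi, beside a median of 54% and 4 CpG over 32851 windows of 27025 genes. RefSeq windows were matched for 26 of the 38 genes. TATAAA was in the windows of 4 of these 26 genes and in 4.84% of all windows, CCAAT in 6 genes and 24.5% of windows, and GGGCGG in 11 genes and 28.6% of windows. A gene with several starts counts here if any of its windows held the motif. A match describes the letters only.

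Of fibronectin, tenascin-C and the thrombospondins, all 5 genes passed background somewhere. Fn1 encodes fibronectin, the fibril-forming ligand of integrin alpha5 beta1. It was 5860.2, 9131 and 5854 in parental, BM 1st and BM 2nd cells, a log2 ratio of 0.64 at the first step and -0.64 at the second. The other probes above background gave 0.22 and 0.66 for the first step, with a mean over probes of 0.51. For the second step they gave -0.13, -0.78 and 0.19, with a mean over probes of -0.34, so the 1.5-fold calls were lost with the mean. Thbs2 encodes thrombospondin-2, a matricellular protein that limits vessel growth and binds matrix proteases. It was 4970, 12315 and 6888 in parental, BM 1st and BM 2nd cells, with a log2 ratio of 1.31 at the first step. In BM 2nd cells the log2 ratio to parental cells was 0.47 and that to BM 1st cells was -0.84.

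Tnc encodes tenascin-C, which reduces cell adhesion to fibronectin and is abundant in tumour stroma. Its brightest probe was 120.5, 97.8 and 269 in parental, BM 1st and BM 2nd cells, and the BM 1st value was not above background. BM 2nd cells were 2.24-fold above parental cells, a log2 ratio of 1.16, and their log2 ratio to BM 1st cells was at least 1.29 when the BM 1st value was set to the background. Of the 7 probes for Tnc a second one followed it, at 116, 91.8 and 201, with a log2 ratio of 0.80 to parental cells, and the other 5 were at or near background. The mean over probes above background was 0.67 against parental and 0.89 against BM 1st cells, short of 2-fold in both. Thbs1, whose product activates latent TGF-beta, was close to background at 116, 119 and 113. Thbs3 was 270.0, 184 and 182, with log2 ratios to parental cells of -0.55 and -0.57 that did not reach 1.5-fold, and its 2 other probes gave -0.23 and 0.01 in BM 2nd cells.

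Laminins are trimers of an alpha, a beta and a gamma chain, and they build the basement membrane together with nidogen and type IV collagen. Of the laminin chains in the list only Lama5, Lamb1, Lamb2 and Lamc1 were above background, so that 1 of the 4 alpha chains with a probe was detected. Lama5 encodes the alpha5 chain and was 888, 1578 and 886 in parental, BM 1st and BM 2nd cells. Lamc1 encodes the gamma1 chain and was 2168, 3472 and 1608. Both were higher in BM 1st cells than in the other lines. The log2 ratios of BM 1st to parental cells were 0.83 for Lama5 and 0.68 for Lamc1, and those of BM 2nd to BM 1st cells were -0.83 and -1.11. The other Lamc1 probe gave 0.89 and -1.24 for the same steps, and Lama5 has 1 probe. With each array centred on its own probes above background, the second step of Lamc1 was -0.95, short of 2-fold.

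The beta chains moved less. Lamb1 was 269, 284 and 284 in parental, BM 1st and BM 2nd cells, with log2 ratios of 0.08 and 0.07 to parental cells, within the SD between probes. Lamb2 was 316, 305 and 419, with a log2 ratio of 0.41 in BM 2nd cells. Nid1 encodes nidogen-1, which links laminin to type IV collagen, and was 1871, 3443 and 2674. Its log2 ratio of BM 1st to parental cells was 0.88, while its other probe gave 0.14 and the mean was 0.51. From BM 1st to BM 2nd cells its probes differed in sign, at -0.36 and 0.22.

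Microfibrils are the scaffold on which elastin is laid down. Elastin itself and fibulin-2 and fibulin-5 were not above background, and 7 of the 12 genes of this group with a probe were. Emilin1 and Emilin2 encode elastin microfibril interface proteins, and emilin-1 restrains the processing of TGF-beta precursors. Emilin1 was 244, 349.6 and 507 in parental, BM 1st and BM 2nd cells, with similar log2 steps of 0.52 and 0.54 that added up to 1.06. It has 1 probe. Emilin2 was 320.1, 473 and 571, a log2 ratio of 0.84 in BM 2nd cells, or 1.08 with background subtracted, and its other probe gave 0.71. Both emilins were higher in each selected line than in parental cells by more than the usual SD between probes.

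Fbln1 encodes fibulin-1, which binds fibronectin, laminin and elastic fibres. It was 544, 271 and 601 in parental, BM 1st and BM 2nd cells, so that it fell by 1.01 on the log2 scale and returned by 1.15. Its 3 other probes above background gave -0.75 to -0.43 for the first step and 0.60 to 1.12 for the second. The direction was the same at all 4 probes above background, but the mean over probes was -0.73 for the first step and 0.96 for the second, short of 2-fold. Ltbp1 and Ltbp3 encode proteins that bind latent TGF-beta to the matrix. Ltbp1 was 519, 683 and 461, and Ltbp3 was 3440.1, 4796 and 4222, so that both were highest in BM 1st cells at these probes. A dimmer Ltbp3 probe was lowest there, at 141, 129.8 and 170.0. Ltbp2, which does not bind latent TGF-beta, was near background at 127, 132 and 129, and Mfap2 was 95.6, 114 and 97.0.

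**Figure D3:**
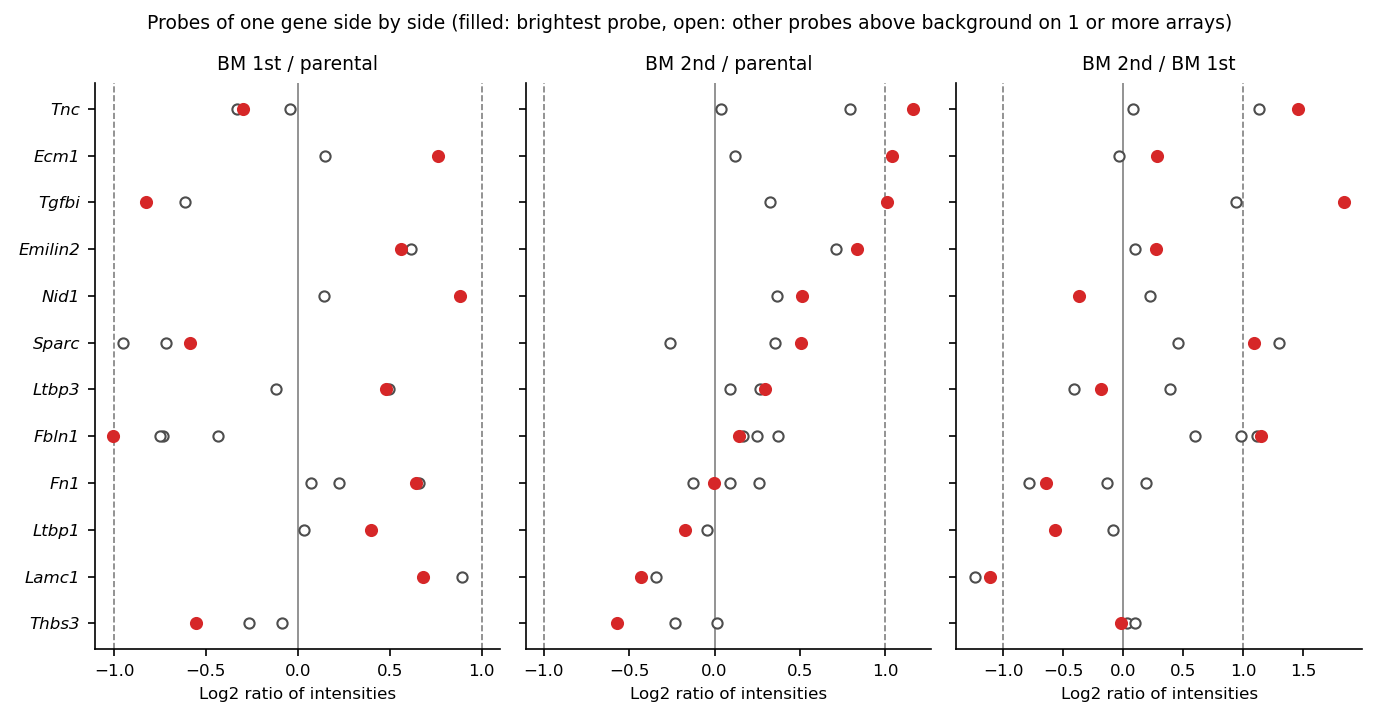
Log2 ratios at each probe of the 12 matrix glycoprotein genes with more than 1 probe above background, for each selected line against parental cells and for the 2 selected lines against each other; the filled point is the brightest probe, open points are other probes above background on 1 or more arrays, and dashed lines mark 2-fold. The probes of Fbln1, Lamc1 and Tgfbi lie on one side of 0 at each step, whereas those of Sparc straddle 0 in BM 2nd against parental cells and those of Ecm1 differ by more than 0.9.

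Matrix glycoproteins outside the 38 genes were read from a list of 45 genes, 41 of them with a probe. In BM 2nd against parental cells 6 of 22 were more than 2-fold higher and 0 lower. Mgp, a calcification inhibitor that the study also picked from these arrays, did not pass background in the parental line, and BM 2nd cells exceeded that background-limited level at least 15.5-fold. The others were Spon2 at a log2 ratio of 2.79, Igfbp7 at 2.70, Ccn1 at 1.70, Ccn4 at 1.57 and Pcolce, an enhancer of collagen processing, at 1.18. In BM 1st cells 0 of 20 were higher with dim values set to background, Mgp being at least 1.69-fold higher, and 1 was lower, Pcolce at -1.97. From BM 1st to BM 2nd cells 6 of 22 were higher and 1 lower, Agrn at -1.28.

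The receptors for these proteins moved less. Of 24 integrins, syndecans and other receptors, 19 passed background in 1 or more lines, and in BM 2nd cells 0 of 17 were past 2-fold higher and 0 lower than in parental cells. Itgb5, a chain of a vitronectin receptor, was the single gene past 2-fold in BM 1st cells, at -1.05. Among genes for elastic fibre crosslinking and TGF-beta release, 1 of 10 was more than 2-fold higher in BM 2nd cells, the crosslinking enzyme Loxl1, also among the study's picks. It was 99.9, 215 and 1505, and since parental cells were not above background the lower bounds were 1.96-fold for BM 1st and 13.7-fold for BM 2nd cells. Among TGF-beta target genes 2 of 8 were higher in BM 2nd cells, Acta2 at a log2 ratio of 3.16 and Ccn1, already named above. Compared with BM 1st cells 4 of 8 were higher. Over all genes compared the shares were 1.83% and 3.01%. The other targets compared with parental cells ran from Id3 at 0.81 to Tgif1 at -0.62, with Skil also lower at -0.24. Smad7, Tagln and Cnn1 were not above background on any array. In BM 1st cells 1 of 7 was lower, Id1 at -1.21.

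Some markers of other cells that a marrow culture could hold also differed between the lines, and others did not. Their part in the differences above was not tested. Fewer cells of a type and less RNA per cell cannot be told apart in such samples. Of 14 fibroblast and marrow stroma markers with a probe, 7, 8 and 10 were above background in parental, BM 1st and BM 2nd cells, and their summed intensity was 7788, 13590.2 and 20942. Without Lum and Dcn the 12 other markers summed to 6564, 5589 and 8635, lowest in BM 1st cells. Bright probes weigh most in such sums, and Vcam1 alone was 4277, 2836 and 4299 in the same order. In BM 1st cells Vcam1 and Col3a1 were at log2 ratios of -0.59 and -0.41 to parental cells. Pdgfra rose at both steps, at 258, 851 and 1068. In BM 2nd cells 4 of 11 were more than 2-fold higher than in parental cells, beside 1.83% of all genes compared. They were Lum at 4.95, Dcn at 2.59, Col1a1 at 2.10 and Pdgfra at 2.05 on the log2 scale. The others compared were Col3a1 at 0.81, Fap at 0.79, Pdpn at 0.22, Lepr at 0.07, Vcam1 at 0.01, Cxcl12 at -0.06 and Col1a2 at -0.08. Lum and Dcn are among the genes the study picked, and the bound for Col1a1, which parental cells did not show above background, was 3.76-fold. The study lowered Lum by shRNA in BM 2nd cells and also found lumican raised in bone-selected human A549/luc cells. In BM 1st cells 3 of 9 were more than 2-fold higher, Lum at 3.14, Dcn at 2.61 and Pdgfra at 1.72, beside 2.04% of all genes compared. Pdgfrb, Thy1 and Mmp2 were not above background on any array. Fibroblasts can also make Dpt and Aebp1, described above, and which cells gave their signal here was not tested.

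The summed intensity of leukocyte markers was highest in BM 1st cells, where Lama5, Lamc1, Fn1 and Thbs2 also peaked at their chosen probes, and its part in those differences was not tested. Of 13 with a probe, 2, 10 and 5 were above background in parental, BM 1st and BM 2nd cells, with summed intensities of 1277, 2863 and 1739. Against parental cells, with dim values set to background, 3 of 10 were more than 2-fold higher in the BM 1st line and 1 of 5, Lyz2, in the BM 2nd line. Coro1a had another order and was highest in BM 2nd cells, at 113, 133 and 173. Lyz2 was 79.5, 1078 and 365, Laptm5 90.1, 367 and 184, and Fcer1g 95.4, 255 and 128. None of these 3 was above background in parental cells, and against that background they were higher by at least 9.84-fold, 3.35-fold and 2.33-fold in the BM 1st line and by at least 3.33-fold, 1.68-fold and 1.17-fold in the BM 2nd line. Ptprc was only just above background in BM 1st cells at 111, and Tyrobp and Itgam were not above it on any array. The platelet gene Pf4 was 106, 347 and 118, while 4 other megakaryocyte and platelet markers were within 2-fold. Of 8 endothelial markers 2 were above background on any array and 0 passed 2-fold. Of 7 osteoblast markers with a probe, Col1a1 was higher in BM 2nd cells, and Phex was higher in BM 1st cells at a log2 ratio of 1.44. In BM 2nd cells Phex was lower, at -0.59 to parental and -2.03 to BM 1st cells. Sp7, Alpl and Ibsp were at 0.93, -0.10 and -0.11 in BM 2nd against parental cells. Bglap and Dmp1 were not above background on any array. Of 15 cell cycle genes 10 were more than 2-fold below parental cells in the BM 1st line, with a median log2 ratio of -1.27, and against that line 11 of 16 were more than 2-fold higher in the BM 2nd line.

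**Figure D4:**
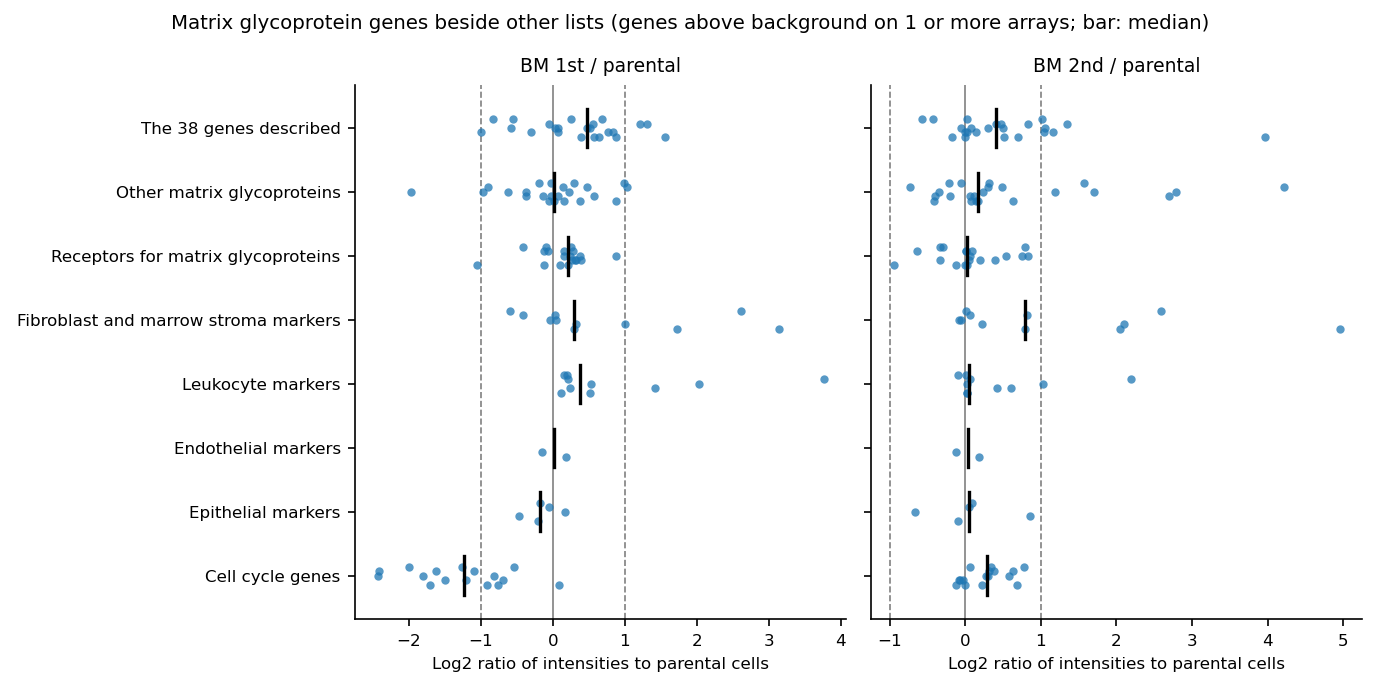
Log2 ratio to parental cells of genes above background on 1 or more of the 3 arrays in 8 lists, for BM 1st cells on the left and BM 2nd cells on the right; each point is 1 gene, the bar is the median over the points shown, and dashed lines mark 2-fold. Genes not above background in one of the lines are drawn at their measured ratio. Most cell cycle genes lie below 0 in BM 1st cells, and Dpt stands apart from the other genes of the first row in BM 2nd cells.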

How the data were processed

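Total RNA of 3 mouse cell lines was measured on 1-colour Illumina whole-genome bead arrays for mouse, 1 array per line. The deposited table holds 1 linear intensity per probe and array. The submitters' processing notes name GenomeStudio 2011.1, while how it normalized the values or treated background is not given in those notes or the methods. Once sorted, the intensities that the authors deposited differ by at most 0.274 between arrays, as after quantile normalization, and with a median of 101 the background had not been subtracted. A single common distribution hides a change that most genes share, and an unsubtracted background makes ratios of dim genes smaller.

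The software was pandas 2.3.3 and numpy 2.4.6 in Python 3.11.15 for log2 ratios, and matplotlib 3.10.9 for plots. Of 45281 probes, 34885 had 1 gene in the platform annotation, 18 several (not named) and 10378 none. Symbols were updated through RefSeq. Genes were called past 2-fold, the threshold the study states, and also counted past 1.5-fold. Counting was first tested on simulated data with known changes. Those changes were well past 2-fold and in genes well above background, so calls near the threshold or on dim probes were not covered.

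The 38 genes, the 15 gene lists (209 genes, 195 with a probe) and the tests were chosen with earlier results of these data known. Values are given for every gene of the 38 past 1.5-fold in any comparison, for Fn1, Sparc and the laminin chains above background, and for at most 6 genes of each other list past 2-fold. Other genes were named after their values were seen. Alternatives varied the background filter and level, background subtraction, centring, dim arrays, probe choice and threshold. Counts of other lists with dim values set to background were added after seeing the data. No test across replicates was possible.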

Additional observations from a re-analysis of the deposited data

Results flagged for a closer look

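Of the 38 genes 4 had opposite signs in the 2 selected lines against parental cells, with both log2 ratios more than 2 times the median SD between probes. The differences were not tested, since each line has 1 array. Tgfbi was -0.83 at first and 1.01 after the second selection, a difference of 1.84 in the log2 ratio. Tnc was -0.30 and 1.16, a difference of 1.46, with the BM 1st value not above background and its ratio only -0.13 when set to that level. Sparc was -0.59 and 0.50, a difference of 1.09, but 1 of its other probes was negative in both lines, at -0.72 and -0.26. Lamc1 ran the other way, at 0.68 and -0.43, a difference of -1.11.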

How the results depend on the processing

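Of 358 alternative values of 15 single genes 291 moved by less than the spread between probes, 67 moved by more, and 0 values past 2-fold turned to the opposite sign. Values near 0 did, as Fn1 in BM 2nd against parental cells at 0.14 and Lama5 at 0.13 with each array centred on its own probes. Changes of the background filter or level cannot alter a gene's ratio, so their 45, 45 and 43 values could not move. With background subtracted 19 values moved and 26 did not. The mean over probes moved 16 and left 29, and centring on each array's own probes moved 30 and left 15. Without a background filter the median log2 ratio over the 35 genes with a probe was 0.041 for BM 2nd and 0.076 for BM 1st against parental cells. With the mean over probes, 3 genes were more than 2-fold higher in BM 2nd against parental cells, 0 were lower in BM 1st against parental cells with a median of 0.28, and 2 were higher in BM 2nd against BM 1st cells. Over all genes the mean called 146 higher and 120 lower in BM 2nd against parental cells. It called 178 and 155 in BM 1st against parental and 260 and 149 in BM 2nd against BM 1st cells. With background subtracted, 5 genes were more than 2-fold higher in BM 1st and 8 in BM 2nd against parental cells, Matn2 and Emilin2 being added to the 6 in the latter. Past 1.5-fold, 8 were higher and 3 lower in BM 1st against parental cells, and 4 were lower in BM 2nd against BM 1st cells.

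Centring each array on its own probes above background was added after seeing the data. It shifted all log2 ratios of BM 2nd to parental cells up by 0.14 and those of BM 2nd to BM 1st cells up by 0.16, and gave medians of 0.58 and 0.16 over the matrix glycoprotein genes compared, the second of which was -0.0012 before, with 0 more than 2-fold lower in BM 2nd against BM 1st cells. Over all genes it called 280 higher and 108 lower in BM 2nd against parental cells, a higher share of 72.2% in place of 54.5% (194 and 162), and 465 and 115 in BM 2nd against BM 1st cells, 80.2% in place of 62.8% (318 and 188). With background subtracted these counts over all genes were 620 and 510 in BM 2nd against parental, 602 and 568 in BM 1st against parental and 808 and 620 in BM 2nd against BM 1st cells. Every comparison was also centred on the same 15294 probes above background. The medians were then 0.44 for BM 2nd against parental and 0.0011 for BM 2nd against BM 1st cells. Over all genes 197 were higher and 160 lower in the former, and 321 and 185 in the latter. Genes above background numbered 9659, 9543 and 10012 in parental, BM 1st and BM 2nd cells, so the own probes differed between arrays. The causes of the shifts under own-probe centring and background subtraction were not tested. No paired analysis was possible because each line has 1 array.

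Signal over background limits what can be said of the 12 genes on no array and of Tnc, Mfap2, Thbs1 and Ltbp2, which lie close to it.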
